A study of Homo sapiens with 4 samples.

Results

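The miRNAs described here come from the RTL1 and MEG3 end of the imprinted domain at 14q32, and include miR-127 and miR-433. They were chosen by name and by no measured value, with earlier results of these data known. Every assay for miR-127, miR-136, miR-337, miR-370, miR-431, miR-432, miR-433, miR-493, miR-665 or miR-770 was taken, with either arm. This gave 15 of 737 miRNA assays, from 10 hairpins. Mature miRNA was quantified by PCR in U2OS, an established osteosarcoma line, in 4 samples with 1 per group. One pair of samples was infected with lentivirus and selected with puromycin: shNS expressed a non-targeting control hairpin and shDDX1 a hairpin directed at DDX1. The other pair was left untreated or given neocarzinostatin (NCS) at 500 ng/ml for 6 h. NCS is an enediyne that breaks both DNA strands, and DDX1 is a DEAD-box RNA helicase. The labels do not say whether the cells of the second pair carried a lentivirus, nor how many hairpins against DDX1 were used. DDX1 itself is not measured by these assays, so the depth of the knockdown is not analysed here.

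The domain between DLK1 and DIO3 is imprinted: DLK1, RTL1 and DIO3 are expressed from the paternal chromosome, and MEG3, MEG8 and the miRNAs from the maternal one. The hairpins of miR-431, miR-433, miR-127, miR-432 and miR-136 lie antisense to the coding sequence of RTL1, a retrotransposon-derived gene, so that they match its transcript perfectly and can direct its cleavage. The miRNAs of 14q32 are widely reported as reduced in osteosarcoma. Each hairpin can give a mature miRNA from its 5p and its 3p arm, and older names mark the arm taken as minor with an asterisk.

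All 15 assays were matched to a mature sequence of the RefSeq table for GRCh38.p14, 6 under the same name and 9 through the older name of the arm. The older names were resolved from general knowledge of miRNA naming, since the deposited tables give no arm or primer for them. The arms lie on the plus strand of chromosome 14, from miR-770-5p at chr14:100852409-100852431 to miR-370 at chr14:100911186-100911207. Along 58.7 kb of that strand the hairpins come in the order MIR770, MIR493, MIR337, MIR665, MIR431, MIR433, MIR127, MIR432, MIR136 and MIR370. MIR770 lies within MEG3, MIR370 within MEG8 and the 5 hairpins from MIR431 to MIR136 within RTL1, where their starts are at most 3.70 kb apart. The 15 arms hold 15 different seeds (bases 2 to 8), so no 2 of them share one. Of these, 14 were found in no other of the 2370 mature miRNAs of the table, and the seed of miR-770-5p is shared with miR-4712-5p. The sequences below are those of the members with the largest changes or a special place in the results, 5′ to 3′ with the seed in capitals.
hsa-miR-770-5p: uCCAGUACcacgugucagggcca
hsa-miR-665: aCCAGGAGgcugaggccccu
hsa-miR-431: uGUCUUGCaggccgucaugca
hsa-miR-431*: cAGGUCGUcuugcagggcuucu
hsa-miR-127-5p: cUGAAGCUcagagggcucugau
hsa-miR-127-3p: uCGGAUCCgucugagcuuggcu
hsa-miR-432: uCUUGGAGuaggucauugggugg
hsa-miR-432*: cUGGAUGGcuccuccaugucu
hsa-miR-136: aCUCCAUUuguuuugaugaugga
hsa-miR-370: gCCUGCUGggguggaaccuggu

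The GC content of the 15 arms ran from 34.8% in miR-136 to 70.0% in miR-665, with a median of 54.5% against 52.2% over all mature miRNAs of the table. Both arms of miR-431 contain the run GUCUUGCAGG, the longest stretch they share, at 10 bases. In the other 4 hairpins with both arms measured the longest shared run was 3 to 5 bases. The MIR431 hairpin, chr14:100881007-100881120 on the plus strand, is shown with the miR-431 arm and then the miR-431* arm in capitals.
MIR431: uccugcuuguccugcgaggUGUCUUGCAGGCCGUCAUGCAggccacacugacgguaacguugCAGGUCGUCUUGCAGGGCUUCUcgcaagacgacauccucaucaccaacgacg

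The quantification cycle (Ct) is the PCR cycle at which a well passes the detection threshold, so 1 cycle earlier stands for about 2 times the RNA. With 1 sample per group no difference has a replicate check and no p-value can be given. The pooled SD of the 3 calibrator wells of a plate was 0.191 cycles. The assays were spread over plates called panel I and panel II. The 7 assays present on both gave an SD of a log2 ratio of 0.38 for shDDX1 over shNS and 0.79 for NCS over untreated. Not all 7 are miRNA assays. In such bulk samples, fewer cells of a type and less RNA per cell cannot be told apart. Levels were centred on a mean Ct of 25.8 for shNS, 26.1 for shDDX1, 30.1 for untreated cells and 29.4 after NCS, and each ratio stays inside its own pair. Markers of mesenchymal and osteosarcoma cells (miR-21, miR-31, miR-100, miR-221 and miR-222) were read at Ct 16.6 to 27.4, all 5 in each sample. Of 9 miRNAs known from liver, neurons, muscle and blood cells, all 9 were read under Ct 35 in shNS and shDDX1, at 22.6 to 30.1, 7 in untreated and 8 in NCS-treated cells.

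Most members were read late. Against the earliest water well of their own panel, at 27.8 (panel I) and 26.6 (panel II) with shNS and at 27.3 and 26.5 with shDDX1, 13 of the 15 were later in both samples. Only miR-665 and miR-431 were earlier. The part of background signal in the other 13 was not tested. In untreated and NCS-treated cells no water well gave a Ct.

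miR-665 had the earliest Ct of the cluster in each sample. Its Ct was 17.96 with shNS and 18.6 with shDDX1, and 26.8 before and 25.4 after NCS. Of the assays with a Ct, 1.22% were earlier than miR-665 with shNS and 0.680% with shDDX1, against 12.5% before and 10.2% after NCS. hsa-miR-431 came next in each sample, at Ct 24.3, 25.6, 30.7 and 29.4 in the same order. In shNS it was 6.31 cycles behind miR-665 and 3.76 ahead of miR-127-5p, the third. The other 13 members lay between Ct 28.02 and 33.9 in shNS and between 27.9 and 34.3 in shDDX1. In either sample 9 of the 14 steps between neighbours in this order were under 0.541 cycles, 2 SDs of a difference between single wells, so the order among miR-433, miR-432, miR-432*, miR-493 and miR-127-3p in shNS is not resolved. Latest in shNS were miR-337-5p at 33.7 and hsa-miR-431* at 33.9. Ct values of different assays also carry differences in primer efficiency, so this is an order of readings.

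**Figure D1:**
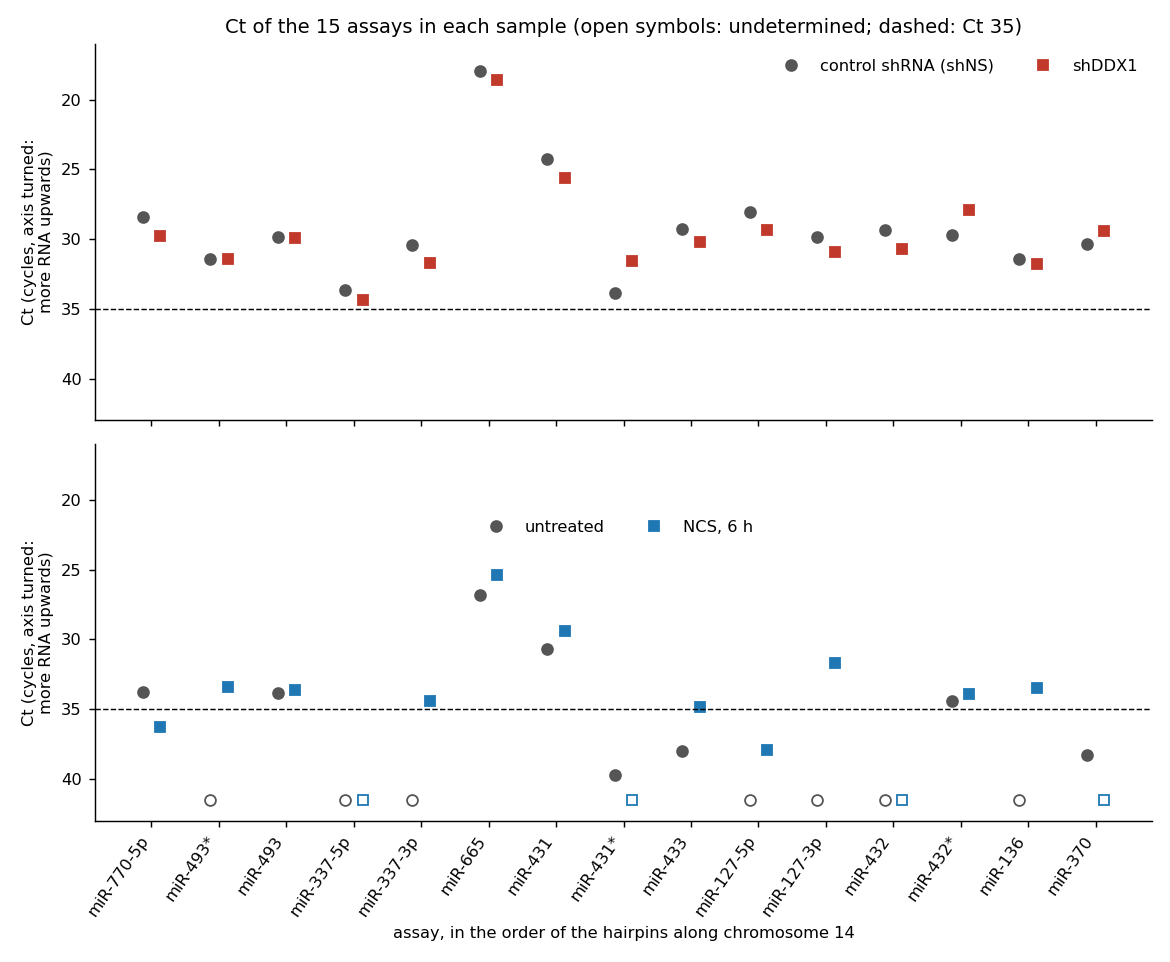
Ct of each of the 15 assays (vertical axis in cycles, turned so that more RNA is higher) in shNS and shDDX1 (upper plot) and in untreated and NCS-treated cells (lower plot). Each symbol is 1 well, open symbols near the bottom are undetermined wells and the dashed line is Ct 35: all 15 lie above the line in the upper plot, 5 of the untreated and 9 of the NCS readings in the lower one.

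The first comparison asks which miRNAs depend on DDX1. All 15 members were read under Ct 35 in both samples. So were most others: of all 737 assays, 729 were under it in shNS and 720 in shDDX1. After centring, shDDX1 held miR-431, miR-432, miR-127-5p and miR-770-5p at levels 2-fold or more below shNS, and miR-431*, miR-432* and miR-370 at levels 2-fold or more above it. Only the last 3 and miR-770-5p were also past 2-fold with each panel centred separately. A log2 ratio of 1 or -1 is a 2-fold change.

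Among the antisense members, miR-431 went from Ct 24.3 in shNS to 25.6 in shDDX1. Its centred log2 ratio was -1.06, or 2.08-fold lower. miR-432 went from Ct 29.4 to 30.7, which is 2.07-fold lower. The arms of miR-127, a miRNA known as a repressor of BCL6, were read later in shDDX1 as well. miR-127-5p went from Ct 28.02 to 29.4, or 2.07-fold lower, and hsa-miR-127-3p from 29.8 to 30.9, or 1.67-fold lower. miR-433 went from 29.3 to 30.2, a log2 ratio of -0.62, and miR-136 from 31.4 to 31.8, a ratio of -0.02. The 3 of these past 2-fold passed it by less than 0.1 on the log2 scale, which is under the SD of 0.38. Readings of the asterisk arms went the other way. miR-431* went from Ct 33.9 to 31.6, a log2 ratio of 2.61, or 6.12-fold higher. miR-432* went from 29.7 to 27.9, a ratio of 2.12, or 4.34-fold higher. With all wells centred together both ratios exceed 2-fold by more than 2 times that SD. With each panel centred separately the SD was 0.57 and the ratios were 2.18 and 1.68, and miR-432* did not exceed 2-fold by that margin. The SD comes from 7 assays, not all of them for miRNAs, and may not hold for wells read this late. Both asterisk arms were read later than the earliest water well of their panel.

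Among the members outside RTL1, miR-770-5p, whose hairpin lies within MEG3, went from Ct 28.4 to 29.7 and was 2.07-fold lower. miR-370, whose hairpin lies within MEG8, went from 30.4 to 29.4 and was 2.42-fold higher. Both passed 2-fold by less than the SD of 0.38. With each panel centred separately their log2 ratios were -1.49 and 1.70. There miR-770-5p passed 2-fold by less than the SD of 0.57, and miR-370 by more. miR-337-3p went from 30.5 to 31.7, a log2 ratio of -0.95, and miR-337-5p from 33.7 to 34.3, a ratio of -0.37. The ratio of miR-665 was -0.33. The readings of both arms of miR-493 differed by 0.059 cycles between the samples, at Ct 29.8 and 29.9 for miR-493 and 31.4 and 31.5 for miR-493*, which gives a centred ratio of 0.24 for each.

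**Figure D2:**
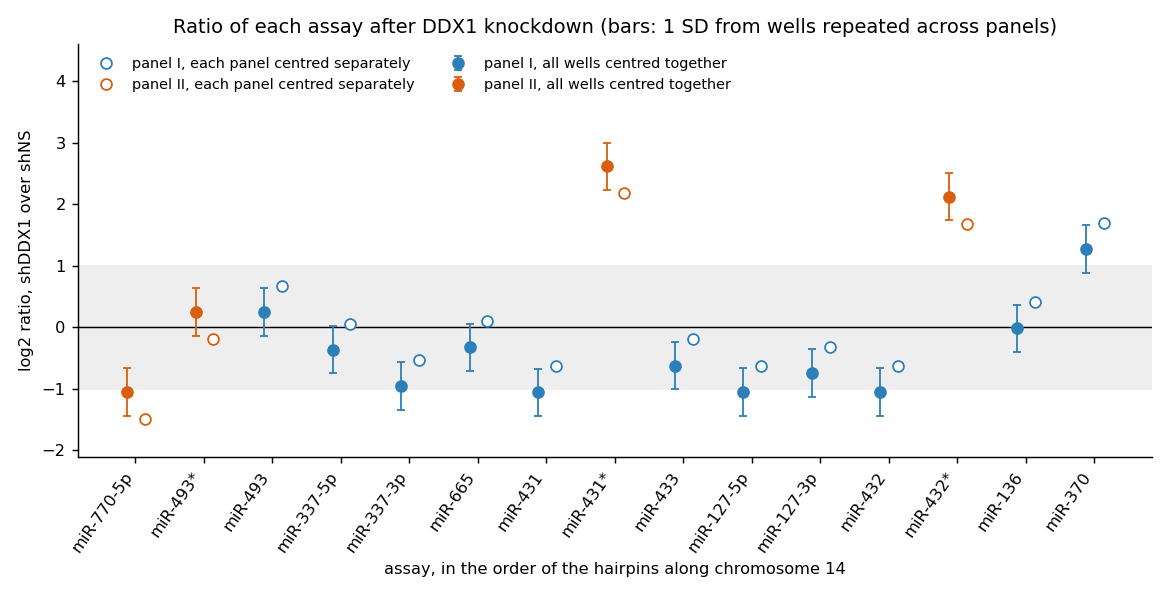
Centred log2 ratio of shDDX1 over shNS (vertical axis) for each assay, filled with all wells centred together and open with each panel centred separately, coloured by panel. Bars are 1 SD of a ratio, 0.38, from 7 assays repeated across panels, and grey marks changes under 2-fold: miR-431*, miR-432* and miR-370 lie above it and miR-770-5p below it under both centrings.

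Of the 15 members 4 were at least 2-fold lower, or 26.7%, where 17.3% of 716 quantified assays were, and 3 were at least 2-fold higher, or 20.0%, where 11% of all were. Of the 4 members on panel II, 2 were higher, miR-431* and miR-432*. Of all panel II assays 19.8% were higher, against 2.73% of all panel I assays. With each panel centred separately the panel II share was 7.93%. The median of the members was -0.37 and that of all assays 0.04. With counts this small the shares are a description. In the neighbouring cluster that runs from miR-379 to miR-410, whose first hairpin starts 111 kb from MIR370, 2-fold falls were read for 21 of 44 quantified assays and 2-fold rises for 3, around a median ratio of -0.84. The difference between the clusters was not tested.

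The panels as a whole moved apart in this comparison, and the members are spread over both, 11 on panel I and 4 on panel II. The median ratio was -0.42 over all panel I assays and 0.46 over all panel II assays. With each panel centred separately, miR-770-5p alone was lower, at 2.80-fold, and miR-431*, miR-432* and miR-370 were higher, at 4.53-fold, 3.21-fold and 3.24-fold. The shares of members were then 6.67% lower, where 15.6% of all assays were, and 20.0% higher, where 7.82% of all were, so the share of lower members lay below that of all assays. The arms miR-431, miR-432 and miR-127-5p were then 1.55-fold, 1.54-fold and 1.54-fold lower, miR-127-3p was 1.25-fold lower, and the median of the members was -0.19. In 7 scalings the ratios of miR-431, miR-432, miR-127-5p, miR-127-3p, miR-433, miR-337-3p and miR-770-5p were below 0 in all 7, and those of miR-431*, miR-432* and miR-370 above 0 in all 7. miR-431* and miR-432* were at least 2-fold higher in each, miR-370 in 4, and miR-770-5p was at least 2-fold lower in each. The ratios of miR-493, miR-493*, miR-337-5p, miR-665 and miR-136 took either sign, depending on the scaling. Against the median of the wells around it, miR-770-5p stood at -0.91, miR-431* at 2.18, miR-432* at 1.43 and miR-370 at 1.04. On that scale miR-431 stood at -0.67, miR-432 at -0.70, miR-433 at 0.07 and miR-136 at 1.03. miR-127-5p stood at -0.29 and miR-127-3p at 0.11. Both miR-127 wells lie on panel I within columns 7 to 18, called its middle columns, and the wells around them had medians of -0.76 and -0.85. The part of plate position in these ratios was not tested.

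The arms of a hairpin derive from 1 precursor, so their ratios can be set against each other. In 5 hairpins both arms were measured. In miR-431 the ratio of the asterisk arm exceeded that of the arm without an asterisk by 3.67 on the log2 scale, and in miR-432 by 3.17. miR-431 was read 9.62 cycles earlier than miR-431* in shNS and 5.95 cycles earlier in shDDX1. The Ct of miR-432* minus that of miR-432 was 0.379 cycles in shNS and -2.79 cycles in shDDX1, the first of which is within the 0.541 cycles that single wells do not resolve. The arms of miR-493 did not part, with a difference of 0.00. In those 3 hairpins the asterisk arm is on panel II and the other on panel I, a layout shared with 111 hairpins quantified in both samples, where the asterisk or 3p arm had the higher ratio by a median of 0.98. Among these 111 differences that of miR-431 was the 6th highest and that of miR-432 the 8th. With each panel centred separately the median of the 111 was 0.12, and the difference was 2.81 for miR-431, 2.31 for miR-432 and -0.86 for miR-493. That centring shifts all 111 differences by the same amount, so the places could not change. The arms of miR-127 and of miR-337 share panel I. There miR-127-3p exceeded miR-127-5p by 0.31 and miR-337-3p fell short of miR-337-5p by a difference of -0.59, and both lie within the quartiles of -0.82 and 0.34 over 40 hairpins on that panel.

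**Figure D3:**
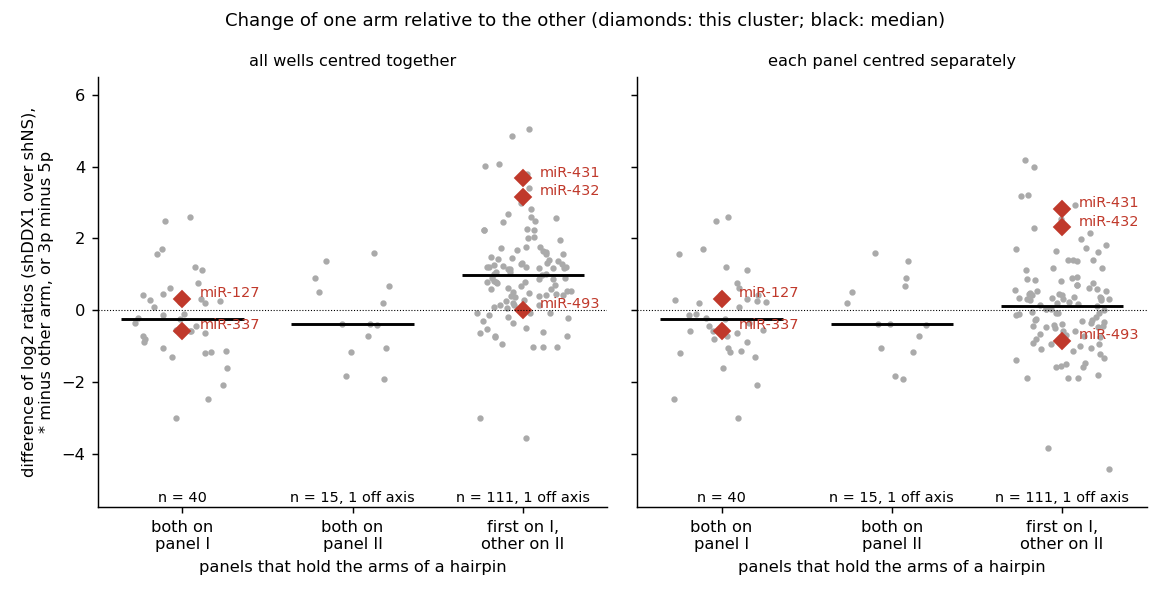
Difference between the arms of a hairpin in the log2 ratio of shDDX1 over shNS (vertical axis), asterisk arm minus the arm without one, or 3p minus 5p, by the panels that hold the arms, with all wells centred together (left) and each panel centred separately (right). Grey points are other hairpins, diamonds the 5 hairpins of the cluster and black lines medians. Hairpins beyond the axis are counted beside n, and 11 hairpins of the reverse layout are left out. miR-431 and miR-432 lie well above the median of their layout, at 3.67 and 3.17 on the left and 2.81 and 2.31 on the right. Separate centring shifts all hairpins of a layout by the same amount, so the right plot is not a second check.

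The second comparison asks which miRNAs move 6 h after NCS. Fewer members could be followed: 5 of 15 were read under Ct 35 in untreated cells and 9 after NCS, with 4 in both. Of all 737 assays, 518 were under Ct 35 in untreated cells, 588 after NCS and 498 in both. With all wells centred together, none of the 4 members differed by 2-fold. miR-431 went from Ct 30.7 to 29.4, a centred log2 ratio of 0.56. miR-665 went from 26.8 to 25.4, a ratio of 0.71. miR-493 went from 33.9 to 33.7 and miR-432* from 34.4 to 33.9, with ratios of -0.52 and -0.23. All of them are smaller than the SD of 0.79. Over 498 assays quantified in both samples, 2-fold rises made up 16.9% and 2-fold falls 22.3%, with a median of -0.38. The sign of each of the 4 depended on the scaling. With each panel centred separately miR-431 stood at -0.24, miR-665 at -0.09, miR-432* at 0.60 and miR-493 at -1.33, which is 2.51-fold lower, where 2-fold falls made up 20.5% of all assays and 2-fold rises 13.7%. Without centring miR-431 and miR-665 were past 2-fold, at ratios of 1.29 and 1.44.

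A further 5 members passed Ct 35 only after NCS and 1 only in untreated cells. The hsa-miR-127-3p well was undetermined in untreated cells and read Ct 31.7 after NCS. miR-493* was undetermined and then 33.4, miR-136 undetermined and then 33.5, and miR-337-3p undetermined and then 34.4. miR-433 went from 37.99 to 34.8. Taking Ct 35 as the value before NCS, miR-127-3p was at least 5.98-fold higher, miR-493* at least 1.80-fold and miR-136 at least 1.71-fold. The readings of miR-337-3p and miR-433 give no bound above 1. With each panel centred separately the bounds were 3.43-fold for miR-127-3p and 3.20-fold for miR-493*, with none for miR-136. In the other direction miR-770-5p went from Ct 33.8 to 36.3. Taking Ct 35 as the value after NCS it was at least 3.83-fold lower, or 2.16-fold with each panel centred separately.

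The share of members that passed Ct 35 only after NCS was 33.3%, against 12.2% of all 737 assays. The share that passed it only in untreated cells was 6.67%, against 2.71%. Assays in the middle columns of panel I passed it only after NCS in 26% of cases, those in the outer columns in 14 of 183. Of the 5 members, miR-127-3p and miR-136 lie in those middle columns, miR-337-3p and miR-433 in the outer ones and miR-493* on panel II. The wells around miR-127-3p that could be quantified had a median log2 ratio of 1.75, those around miR-136 one of 1.96 and those around miR-493* one of -1.03. The bound of miR-127-3p is 2.58 on the same scale. The part of plate position in these readings was not tested. In the cluster from miR-379 to miR-410, 15 of 45 assays passed the limit only after NCS and 2 only in untreated cells.

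**Figure D4:**
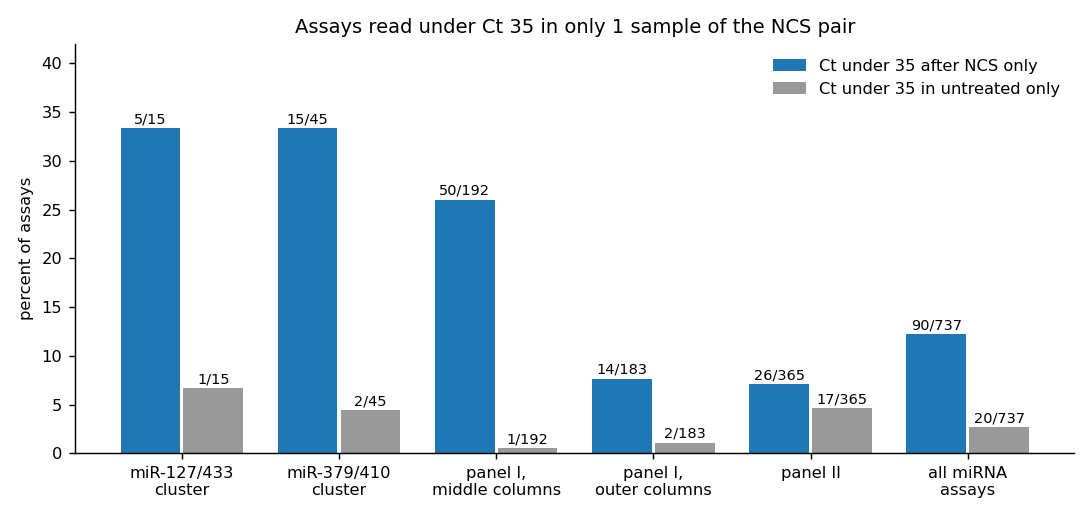
Percent of assays (vertical axis) read under Ct 35 only after NCS (blue) or only in untreated cells (grey), for both 14q32 clusters and for all assays by place on the plates, with the counts above the bars. The 15 members stand at 5 of 15, the middle columns of panel I at 50 of 192 and all miRNA assays at 90 of 737.

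The remaining 5 members were not under Ct 35 in either sample of this pair. miR-337-5p and miR-432 were undetermined in both. miR-127-5p was undetermined in untreated cells and read 37.9 after NCS, while miR-370 and miR-431* read 38.3 and 39.7 in untreated cells and were undetermined after NCS. Neither arm of miR-127 had a Ct in untreated cells. miR-127-3p was 1.82 cycles later than miR-127-5p in shNS and 1.51 cycles later in shDDX1, while its Ct minus that of miR-127-5p was -6.22 cycles after NCS, where the miR-127-5p reading is past Ct 35. The well of miR-127-5p lies in plate row A, beside that of miR-136, and the well of miR-127-3p in row K.

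In the authors' deposited normalized table, 6 members undetermined in untreated cells and 3 undetermined after NCS carry a number, which concerns 8 of the 15. The sources used here do not say how those numbers were made. The authors' deposited fold table thereby lists miR-136 at 106-fold, miR-127-3p at 30.6-fold, miR-127-5p at 4.42-fold and miR-337-3p at 3.10-fold of untreated cells, each against an undetermined well. It lists miR-431* at 1.02-fold and miR-370 at 0.927-fold with the NCS well undetermined, and miR-432 at 0.534-fold with both undetermined. miR-493* has no untreated value in the authors' deposited normalized table, and its fold is listed as 1.33e-10. For members with a Ct in both samples the authors' deposited fold table gives 8.08 for miR-433, 2.73 for miR-665, 2.05 for miR-431, 1.503 for miR-432*, 1.23 for miR-493 and 0.178 for miR-770-5p.

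Across the 4 samples only miR-431, miR-665, miR-493 and miR-432* had a Ct under 35 throughout. Among the assays with that coverage, the 3 whose centred levels moved most like those of miR-431, after each assay's own mean was taken off, were miR-29c, miR-769-3p and miR-519d. Their Euclidean distances from miR-431 over the 4 samples were 0.37, 0.38 and 0.59 on the log2 scale. This distance also holds the difference between the pairs of samples. Centred levels of miR-431 were 1.57 in shNS and 0.51 in shDDX1, against -0.57 in untreated and -0.01 in NCS-treated cells. The part of that difference in the ranking was not tested. miR-29c read Ct 20.4, 21.3, 26.3 and 25.2 in shNS, shDDX1, untreated and NCS-treated cells. The same measure could not be had for miR-127-3p and miR-431*, which were not under Ct 35 in each sample.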

How the data were processed

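Per the labels, Trizol RNA was reverse transcribed with reagents from Exiqon, and SYBR Green was the dye. Instrument and threshold settings are not stated there. The authors deposited Ct values for 768 wells per sample, a table of shifted Ct values, and a table of linear fold over the control of each pair. For members in shNS and shDDX1 the shift was -0.789 cycles (panel I) or 0.789 (panel II), and in the NCS pair it varied by well. Here each level is the sample's mean Ct, over 499 miRNA wells under Ct 35 in all 4 samples, less the Ct of the well. A log2 ratio is a difference of centred levels. A miRNA was quantified at Ct under 35 in both samples and counted as higher or lower at 2-fold.

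The miRNAs, the lists and the alternatives were chosen with earlier results of these data known. All members are named. The most alike assays were the 3 nearest by Euclidean distance. The code (Python 3.11.15, pandas 2.3.3, numpy 2.4.6) was tested on simulated data. Those data held no shift between panels, no effect of plate position and no undetermined wells, so the test checks the calculation only. No test was possible with 1 sample per group.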

Additional observations from a re-analysis of the deposited data

Results flagged for a closer look

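Water wells hold no RNA and stand outside the main measurement. Of 9 such wells, a Ct was recorded for 6 with shNS and for 7 with shDDX1, against 0 in the NCS pair. The earliest read Ct 26.6 in shNS and 26.5 in shDDX1, both on panel II. Of the members, miR-431* read 33.9 and 31.6 on that panel, and miR-432* 29.7 and 27.9. The part of such signal in their higher levels in shDDX1 was not tested.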

How the results depend on the processing

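No paired analysis was possible because no group holds a second sample. For the knockdown, 4 members lower became 8 with small RNA references and 7 with reference miRNAs or at 1.5-fold. They became 6 with no centring or either of the authors' deposited tables and 5 with median centring. The count was 1 with each panel centred separately or each plate set to its calibrators, and 0 with neighbouring wells subtracted or at 4-fold. Shares over all assays are given only for all wells centred together and for each panel centred separately. Apart from panel I alone, counts at other settings, NCS included, have no such share beside them and do not single out the members. Among the 11 panel I members alone, 3 were lower with all wells centred together, or 27.3%, where 29.0% of all panel I assays were. With panel I centred on itself 0 were lower, where 19.4% of all panel I assays were. In both of these panel I settings the 3 higher became 1, which leaves out miR-431* and miR-432*. That is 9.09% of the panel I members, where 2.73% and 7.65% of all panel I assays were higher. Over all members the 3 higher became 2 with small RNA references, reference miRNAs, no centring or either of the authors' deposited tables. They were also 2 with Ct under 32 or at 4-fold, and 4 with neighbouring wells subtracted. The median of -0.37 became -1.03 with small RNA references, -0.83 with reference miRNAs and 0.073 with neighbouring wells subtracted. For NCS, 0 higher became 2 with small RNA references, no centring or either of the authors' deposited tables, 1 with reference miRNAs, no Ct limit or 1.5-fold, and 7 with the authors' deposited normalized table and no Ct limit, which counts filled wells. The 0 lower became 1 with each panel centred separately, Ct under 37, no Ct limit, panel I members centred on panel I (0 with all wells centred together) and the last setting, where the median of 0.17 became 1.03. The panel I settings and the authors' table with no limit were chosen after the data were seen. Over single members, 77 of 135 knockdown values and 27 of 36 NCS values moved by less than the SD. With each panel centred separately that SD was 0.57 for the knockdown and 1.06 for NCS. For the knockdown, every setting but neighbouring wells subtracted moves all members of a panel by the same amount. These counts therefore mainly give the size of such shifts and are no check of single members. No called knockdown value changed sign. For NCS no member was called with all wells centred together, so no called value could change sign, and the sign of each of the 4 depended on the scaling. Late Ct limits the NCS comparison to 4 members.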
